A study of Homo sapiens with 4 samples.

Results

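A set of 10 genes tied to the dedifferentiated, invasive state of melanoma was followed from the core to the invasion zone of MV3 spheroids. The set holds the receptor tyrosine kinases AXL, MET, PDGFRA, PDGFRB, KIT, DDR1, DDR2 and IGF1R, the neurotrophin receptor NGFR and the transcription factor SOX9. Its members were taken by name from the gene table, where each matched 1 row of 56304, and 8 of the 10 had enough counts to be tested. MV3 is an established human line of highly metastatic melanoma, here expressing the nuclear reporter H2B-GFP. The cells were grown within collagen I and dissected on day 2, as spheroids surrounded by invading cells. A 1 mm punch removed the core, and a 3 mm punch then removed the cells that had invaded around it. Bulk RNAseq was performed on 2 libraries of each zone, named core and invasion zone replicates 1 and 2, and no library received any further treatment. Both zones share the cell line, the reporter, the collagen and the day. Dissection was vertical, so cells invading above or below the spheroid could stay in the core punch, and all values come from a single cell line.

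Melanomas move between a pigmented, differentiated state, held by MITF and SOX10, and a dedifferentiated state with high AXL, low MITF and a mesenchymal look. AXL binds GAS6 and signals to survival and motility. MET is the receptor of hepatocyte growth factor (HGF), the PDGF receptors and KIT form a family of growth factor receptors, DDR1 and DDR2 are collagen receptors with slow, lasting kinase activity, and IGF1R carries survival signals of the insulin-like growth factors. NGFR marks a neural crest-like state, and SOX9 often opposes SOX10.

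The deposited counts summed to between 11789243 and 37591782 per library, with the replicate 2 libraries the shallower of each zone. Mitochondrial genes took 1.06% to 1.72% of the counts. Values are given as CPM, the counts of a gene relative to a library size scaled by TMM. Of the lineage markers, MITF averaged 2.14 ± 0.213 CPM in core libraries (SD, n = 2) and 2.53 ± 1.17 CPM in those of the invasion zone, SOX10 and TYR had 0 counts in every library, and DCT had 1 count in all, whereas PRAME, CSPG4, MCAM and PAX3 were detected in every library. MLANA and PMEL were low, at most 1.01 CPM in any library. The lineage gene MC1R had 18.5 and 24.2 CPM in the core and 26.7 and 30.9 CPM in the invasion zone. SOX10, TYR and DCT were thus near 0 in the labelled melanoma line, in both zones, while other lineage genes were present. Of 12 markers of fibroblasts, endothelium, leukocytes and epithelium, a count that leaves out PDGFRB and COL1A1, 11 were too low to be tested. The remaining marker, PECAM1, had 18.1 and 7.42 CPM in the core and 5.22 and 0.925 CPM in the invasion zone. PDGFRB and COL1A1, which can also mark fibroblasts, were detected in every library. COL1A1 had 1080 and 773 CPM in the core and 434 and 216 CPM in the invasion zone, and PDGFRB is described below.

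To address how the set differs between the zones, edgeR's quasi-likelihood test was run across 15529 genes. AXL and MET were higher in the invasion zone, PDGFRB, PDGFRA, DDR1, DDR2 and IGF1R were lower, SOX9 overlapped between the zones, and NGFR and KIT were near 0. A gene was called at a Benjamini-Hochberg adjusted p under 0.05 and a change of at least 2-fold. Without a term for the replicate, 0 of the 8 tested members were called, with 0% of all genes called and a smallest adjusted p of 0.128. At an unadjusted p under 0.05, 5 of the 8 passed (AXL, DDR2, PDGFRB, PDGFRA and DDR1), against 24.3% of all genes, and 3 of these 5 also changed by at least 2-fold, against 8.78%. DESeq2 called the same 3 members, PDGFRA, PDGFRB and DDR1, after adjustment, against 5.81% of all genes, and limma voom called 0, against 0%.

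Same-numbered libraries were read as a pair, since each invasion zone was taken around its own core, although no source states that the number marks a shared spheroid. With this pairing as a replicate block in edgeR, PDGFRA, PDGFRB and DDR1 fell by at least 2-fold in the invasion zone (adjusted p = 0.00017, 0.00063 and 0.00023), 3 of 8 against 10.5% of all genes in either direction and 7.06% lower. An adjusted p under 0.05 at any fold was reached by 7 of 8 members with the block, against 38.8% of all genes, and these included AXL (8.51e-05), DDR2 (0.00029), MET (0.00213) and IGF1R (0.00588), each changing by less than 2-fold. The zones did not overlap for 7 of the 8 members, with 2 above and 5 below, and for 58.3% of all genes. Single libraries also moved the size of the change. With each library left out, ranges of log2 fold change without a block were -3.45 to -1.59 for PDGFRB and -2.50 to -1.01 for PDGFRA. The range for DDR1 was -2.36 to -0.88, under 2-fold at its smaller end. In bulk RNA, a lower level in a zone cannot be told apart from fewer cells that express the gene.

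**Figure D1:**
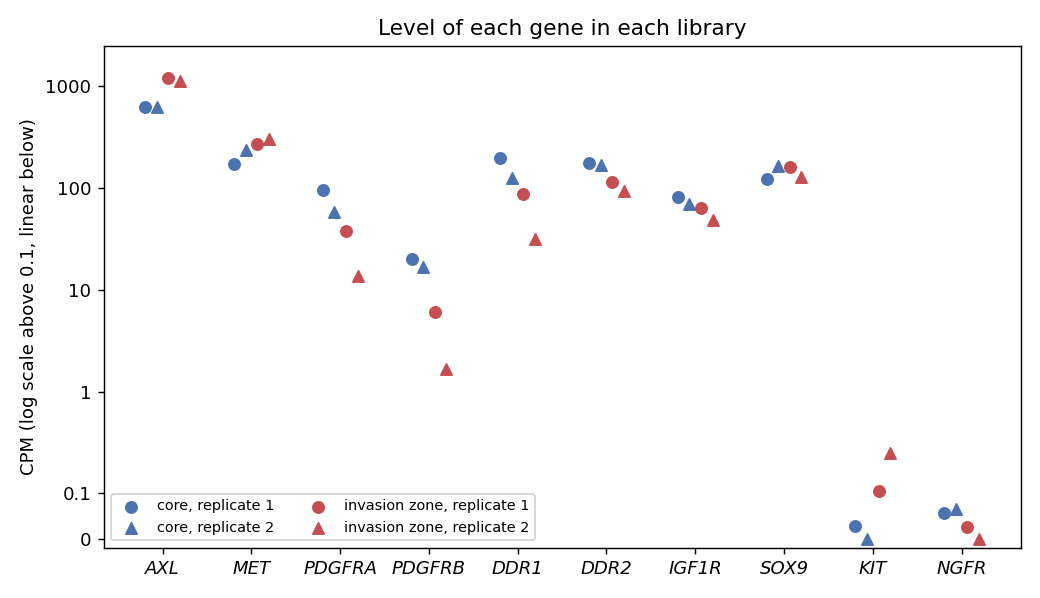
CPM of the 10 genes in each of the 4 libraries, with the core in blue, the invasion zone in red, replicate 1 as circles and replicate 2 as triangles. The vertical axis is logarithmic above 0.1 CPM and linear below. AXL lies at 628 CPM or above in every library, and both red points lie above both blue points for AXL and MET and below them for PDGFRA, PDGFRB, DDR1, DDR2 and IGF1R.

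The promoters of the members that differed most in either direction are shown, as the stretch of 250 bases before a transcription start, from RefSeq on GRCh38.p14 and on the strand of the gene. RefSeq windows were matched for 8 of the 10 members by symbol, 19 windows in all. Capitals mark the hypoxia-response core ACGTG, the AP-1-like pattern TGANTCA, with any base at N, or the GC box GGGCGG, on either strand. None of these motifs overlapped in the 4 stretches.
AXL (chr19:41218973-41219222, + strand): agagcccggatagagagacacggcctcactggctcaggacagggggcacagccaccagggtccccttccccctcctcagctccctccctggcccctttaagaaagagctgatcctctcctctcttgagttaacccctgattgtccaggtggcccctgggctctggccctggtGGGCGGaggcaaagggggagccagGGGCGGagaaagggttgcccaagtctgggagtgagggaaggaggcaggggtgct
MET (chr7:116671946-116672195, + strand): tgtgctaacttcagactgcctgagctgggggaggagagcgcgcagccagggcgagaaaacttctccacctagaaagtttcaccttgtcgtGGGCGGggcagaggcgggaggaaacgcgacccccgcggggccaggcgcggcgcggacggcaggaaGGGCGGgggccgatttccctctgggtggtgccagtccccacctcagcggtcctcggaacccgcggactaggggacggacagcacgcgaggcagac
PDGFRA (chr4:54229043-54229292, + strand): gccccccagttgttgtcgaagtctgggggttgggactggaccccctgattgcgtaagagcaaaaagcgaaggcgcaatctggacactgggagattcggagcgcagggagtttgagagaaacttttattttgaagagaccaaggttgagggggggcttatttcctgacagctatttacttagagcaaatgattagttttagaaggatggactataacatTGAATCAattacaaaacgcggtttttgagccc
PDGFRB (chr5:150155846-150156095, - strand): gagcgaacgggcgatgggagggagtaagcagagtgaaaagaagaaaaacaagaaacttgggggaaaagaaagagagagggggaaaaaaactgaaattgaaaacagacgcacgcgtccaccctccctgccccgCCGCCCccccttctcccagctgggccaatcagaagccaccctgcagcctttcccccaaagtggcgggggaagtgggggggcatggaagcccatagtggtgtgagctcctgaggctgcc
AXL and MET, the members higher in the invasion zone, each held 2 GC boxes, at 78 and 54 bases before the start in AXL and at 160 and 95 bases in MET. PDGFRB held 1 GC box, on the opposite strand. PDGFRA held 1 match to the AP-1-like pattern, with A at N, 32 bases before its start. A second PDGFRA start, not shown, held 2 GC boxes, and 10 of the 19 windows of the set held at least 1, those of members lower in the invasion zone included. ACGTG was in none of these 4 stretches and was in 18.5% of all 35116 windows of this length, against 6.57% for TGANTCA and 42.6% for GGGCGG. A second AXL start held ACGTG at 2 places, and so did an IGF1R and a KIT window at 1 place each. A match in these letters is a description and not a measured binding site.

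AXL (ENSG00000167601, chromosome 19 of GRCh38, 41219223 to 41261766) had 632 and 628 CPM in the core libraries and 1222 and 1120 CPM in the invasion zone libraries. Both core libraries lay close together, and both invasion zone libraries lay far above them. Core libraries averaged 630 ± 3.17 CPM (SD, n = 2) and invasion zone libraries 1171 ± 72.3 CPM. This was 1.86-fold, or 0.89 on the log2 scale (standard error 0.14, adjusted p = 0.128 in edgeR without a block). Within replicates, the log2 ratio of invasion zone to core was 0.95 in replicate 1 and 0.83 in replicate 2, and it stayed between 0.83 and 0.95 with each library left out. Of its exonic bases, 67 of 5134 overlap a gene on the opposite strand.

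Among the other receptors of its family, TYRO3, singled out after its values were seen, had 11.4 and 16.4 CPM in the core and 20.8 and 28.5 CPM in the invasion zone (log2 fold change 0.83, standard error 0.27, adjusted p = 0.160 in edgeR without a block and 0.00124 with it). MERTK had 12 counts in the 4 libraries together. Of the ligands, GAS6, the main ligand of AXL, was abundant in both zones, with 747 and 788 CPM in the core and 627 and 599 CPM in the invasion zone (log2 fold change -0.33, standard error 0.14). PROS1, which activates TYRO3 and MERTK and circulates as the anticoagulant protein S, had 107 and 80.3 CPM in the core and 40.5 and 18.3 CPM in the invasion zone. Its log2 fold change was -1.66 (standard error 0.39), and it was called lower with the block (adjusted p = 0.00012, edgeR).

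MET (ENSG00000105976, chromosome 7, 116672196 to 116798377) had 173 and 236 CPM in the core and 269 and 303 CPM in the invasion zone. The lower invasion zone library lay above the higher core library by a margin smaller than the spread within the core. MET differed by 0.48 on the log2 scale (standard error 0.19, adjusted p = 0.211 in edgeR without a block), with 0.63 within replicate 1 and 0.36 within replicate 2. HGF, its ligand, was near the detection limit, with 60 and 32 counts in the core libraries and 24 and 1 counts in the invasion zone libraries, and was called lower with the block (log2 fold change -2.05, adjusted p = 0.0217).

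PDGFRB (ENSG00000113721, chromosome 5, 150113839 to 150155872) had 20.04 and 16.8 CPM in the core and 6.13 and 1.68 CPM in the invasion zone. Both invasion zone libraries lay well below the core, and replicate 2 of the invasion zone was the lowest, on 20 counts. The log2 fold change was -2.15 (standard error 0.55, adjusted p = 0.135 in edgeR without a block), 4.45-fold lower and the largest change of the set. It was -1.71 within replicate 1 (-1.93 to -1.49, an exact 95% interval for counting error alone) and -3.32 within replicate 2 (-4.05 to -2.66). Without invasion zone replicate 1 the estimate was -3.45, and without invasion zone replicate 2 it was -1.59.

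PDGFRA (ENSG00000134853, chromosome 4, 54229280 to 54298245), which binds most PDGF chains, had 95.1 and 58.2 CPM in the core and 38.1 and 13.6 CPM in the invasion zone. The zones did not overlap, and replicate 2 was the lower library in each. PDGFRA differed by -1.55 on the log2 scale (standard error 0.51, adjusted p = 0.165 without a block), with -1.32 within replicate 1 and -2.09 within replicate 2. The estimate was -2.50 without invasion zone replicate 1 and -1.01 without invasion zone replicate 2. A gene on the same strand overlaps 1533 of its 9547 exonic bases, so that the counting could have dropped some of its reads.

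Within a library, PDGFRB stood lower relative to PDGFRA in the invasion zone. The log2 ratio of their counts per exonic kb was -1.83 and -1.37 in the core and -2.21 and -2.57 in the invasion zone, a difference of -0.79, with -0.39 within replicate 1 and -1.19 within replicate 2. A two-sided exact permutation test of 2 against 2 libraries gave p = 0.333, the smallest it can give. Of the PDGF ligands, PDGFA (log2 fold change 0.06, standard error 0.19) and PDGFC (0.10, standard error 0.17) had overlapping zones. PDGFC had 75.9 and 61.0 CPM in the core and 77.4 and 69.9 CPM in the invasion zone. PDGFD was low, with 87 and 40 counts in the core and 48 and 0 in the invasion zone, and PDGFB was too low to be tested.

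KIT (ENSG00000157404, chromosome 4, 54657267 to 54740783), the receptor that keeps melanocytes alive, had 1 and 0 counts in the core libraries and 4 and 3 counts in the invasion zone libraries. The ratio of invasion zone to core was 7.21 with an exact 95% interval from 0.927 to 325, so that a zone difference was not detectable at this depth. KITLG, its ligand, was present at 31.9 and 30.3 CPM in the core and 28.5 and 30.3 CPM in the invasion zone (log2 fold change -0.08, standard error 0.15). Among receptor tyrosine kinases outside the set, those most like PDGFRB over the 4 libraries were TIE1, RET and EPHA4, with root mean square differences of 0.329, 0.719 and 0.835 in mean-centred log2 CPM, against 0.444 for PDGFRA and 0.495 for DDR1. TIE1 rests on 16, 7, 9 and 0 counts.

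**Figure D2:**
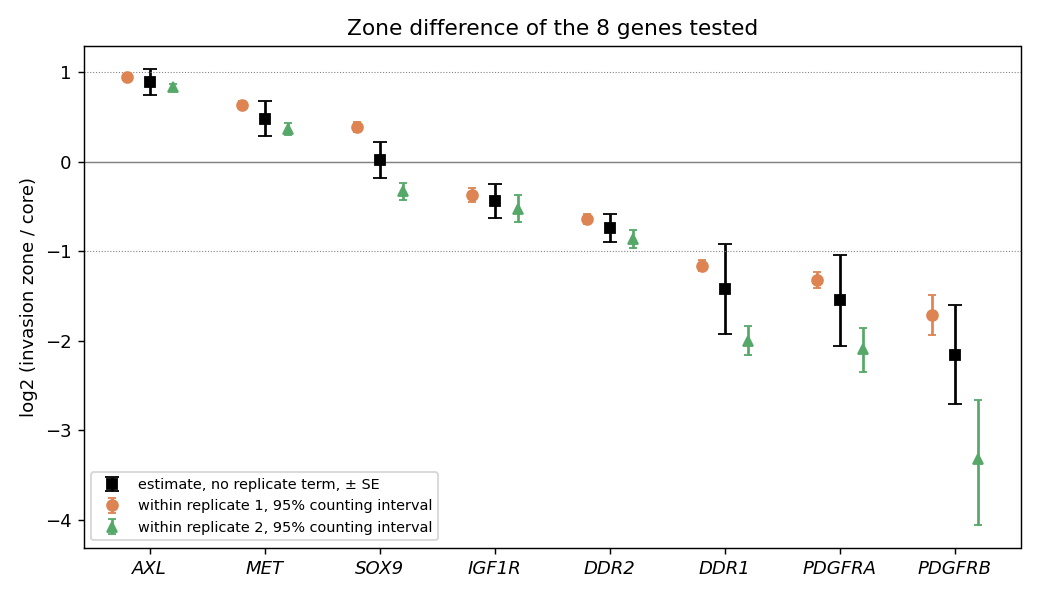
Log2 ratio of invasion zone to core for the 8 genes tested, with the edgeR estimate without a replicate term and its standard error (black squares) and the ratio within replicate 1 (orange circles) and replicate 2 (green triangles) with exact 95% counting intervals. Dotted lines mark a 2-fold change. Both replicates lie on the same side of 0 for 7 genes, SOX9 has 0.38 in replicate 1 and -0.33 in replicate 2, and PDGFRB is the lowest, at -2.15.

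DDR1 (ENSG00000204580, chromosome 6, 30876421 to 30900156) had 196 and 126 CPM in the core and 87.7 and 31.4 CPM in the invasion zone. The zones did not overlap, although libraries of the same zone differed widely. DDR1 differed by -1.42 on the log2 scale (standard error 0.50, adjusted p = 0.176 in edgeR without a block), with -1.16 within replicate 1 and -1.998 within replicate 2. It was -2.36 without invasion zone replicate 1 and -0.88, under 2-fold, without invasion zone replicate 2.

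DDR2 (ENSG00000162733, chromosome 1, 162631373 to 162787405), the receptor for fibrillar collagen, had 179 and 170 CPM in the core and 115 and 93.5 CPM in the invasion zone. Its libraries agreed closely within each zone. The log2 fold change was -0.74 (standard error 0.16, adjusted p = 0.130 in edgeR without a block), a smaller change than that of DDR1 with a smaller error. The log2 ratio of DDR2 to DDR1 per exonic kb was -0.42 and 0.15 in the core and 0.11 and 1.29 in the invasion zone, which overlapped (exact permutation test, two-sided, p = 0.667, where the smallest possible is 0.333). Within both replicates the ratio was higher in the invasion zone, by 0.52 in replicate 1 and by 1.13 in replicate 2, a paired difference that 2 pairs do not allow to be tested at 0.05.

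RNA was detected for some chains of the collagens that these receptors bind, and collagen protein was not measured. COL1A1, a chain of the collagen I that also formed the gel, had 1080 and 773 CPM in the core and 434 and 216 CPM in the invasion zone (log2 fold change -1.51, standard error 0.37), and COL3A1 had 71 and 17 counts in the core and 17 and 1 in the invasion zone. Both were called lower with the block (adjusted p = 6.52e-05 and 0.00658, edgeR). COL1A2, COL4A1 and COL4A2 had at most 5 counts in any library. The gel was rat collagen protein and adds no human transcript of its own to these counts.

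IGF1R (ENSG00000140443, chromosome 15, 98648539 to 98964530) had 82.1 and 69.4 CPM in the core and 63.5 and 48.3 CPM in the invasion zone. The zones did not overlap, but the gap between them was smaller than the spread within either zone. The log2 fold change was -0.44 (standard error 0.19, adjusted p = 0.237 in edgeR without a block), with -0.37 and -0.52 within replicates 1 and 2. INSR, the insulin receptor, had 13 counts in the 4 libraries together. IGF1 was too low to be tested, and IGF2 had 26 and 7 counts in the core and 9 and 1 in the invasion zone. The adaptor IRS2, which carries the signal of IGF1R, had 14.0 and 9.27 CPM in the core and 7.30 and 4.20 CPM in the invasion zone. IRS2 was called lower with the block (log2 fold change -1.02, adjusted p = 0.00288, edgeR), but was -0.995, under 2-fold, without it. The adaptor IRS1 had 55.5 and 36.7 CPM in the core and 46.9 and 25.2 CPM in the invasion zone. These overlapped (log2 fold change -0.35, standard error 0.35).

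SOX9 (ENSG00000125398, chromosome 17, 72121020 to 72126416) had 123 and 163 CPM in the core and 160 and 130 CPM in the invasion zone. The zones overlapped, and the order of the zones was opposite in the 2 replicates, with a log2 ratio of 0.38 in replicate 1 and -0.33 in replicate 2. The log2 fold change was 0.02 (standard error 0.20, adjusted p = 0.964 in edgeR without a block), and it turned to -0.0016 when only genes with at least 10 counts in every library were kept. As SOX10 had 0 counts in every library, SOX9 was at least 632-fold higher per exonic kb than SOX10 in the shallowest library and at least 2455-fold higher in the deepest, against a floor of 3 counts per library.

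SOX9 drives cartilage genes in chondrocytes, and of 10 such targets 5 were tested, at a median of -1.88 on the log2 scale, compared with -0.01 over all genes. Among them, MATN1, with 15 and 7 counts in the core and 6 and 0 in the invasion zone, had enough counts only through the core. The count filter thus favoured a value below 0 for MATN1. COL9A3, COL11A2 and COL9A2 were called lower and MATN3 higher with the block, against 7.06% of all genes lower and 3.41% higher. COL11A2 had 12.4 and 7.49 CPM in the core and 3.33 and 0.504 CPM in the invasion zone, and MATN3 had 2.15 and 3.38 CPM in the core and 5.04 and 6.14 CPM in the invasion zone. COL2A1 and ACAN had at most 1 count in any library. Of the 14 other SOX genes 6 were tested, and SOX4, a factor of stem-like and mesenchymal states, had 132 and 123 CPM in the core and 50.5 and 52.3 CPM in the invasion zone (log2 fold change -1.31, standard error 0.14, adjusted p = 0.128 in edgeR without a block and 5.79e-05 with it).

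NGFR (ENSG00000064300, chromosome 17, 49495293 to 49515008), the p75 receptor, had 2 and 1 counts in the core libraries and 1 and 0 counts in the invasion zone libraries, so that both zones were at or below the floor of 3 counts and a zone difference was not detectable at this depth. A count of 0 in the shallowest library allows up to 0.252 CPM. Of its ligands, BDNF was present at 129 and 124 CPM in the core and 108 and 125 CPM in the invasion zone, while its kinase receptor NTRK2 had 0 counts throughout. SORCS2, a partner of NGFR, was called lower with the block (log2 fold change -1.70, adjusted p = 0.00994).

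**Figure D3:**
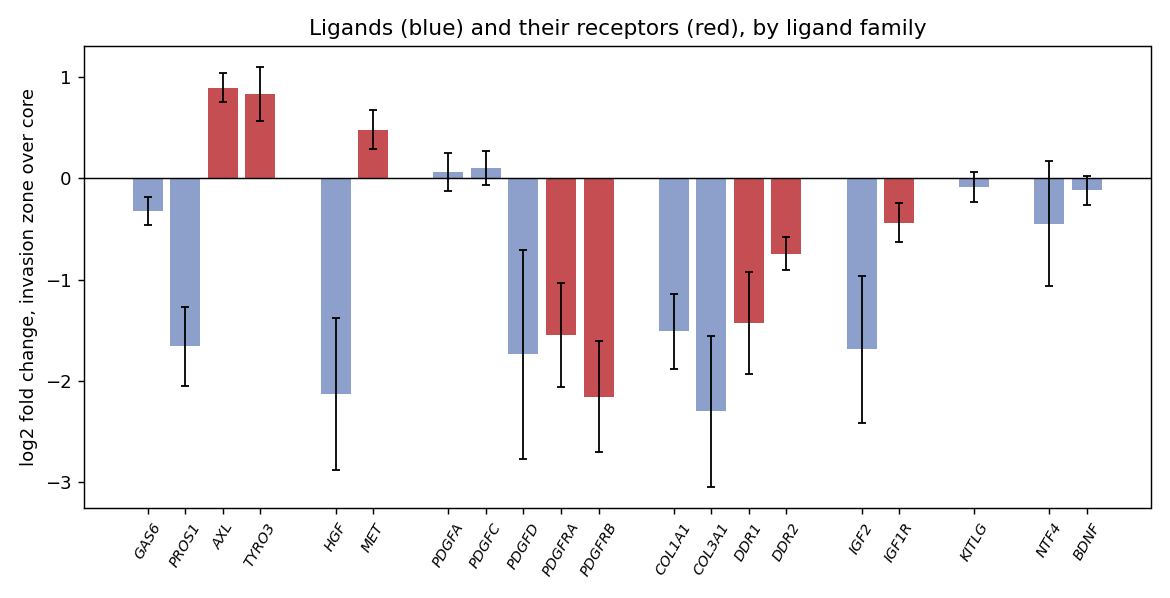
Log2 fold change from core to invasion zone for tested ligands named in the text and NTF4 (blue) and receptors (red), grouped by ligand family, with bars from 0 and standard errors of edgeR without a replicate term. AXL (0.89) and MET (0.48) lie above 0 where GAS6 (-0.33), PROS1 (-1.66) and HGF (-2.13) lie below. DDR1 and DDR2 lie below 0 as do COL1A1 (-1.51) and COL3A1 (-2.30). The PDGF receptors lie below 0 as does PDGFD (-1.74), where PDGFA (0.06) and PDGFC (0.10) do not. Receptors too low to be tested are not drawn.

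Over the 19 ligand genes, 13 were tested, with a median log2 fold change of -0.45, compared with -0.01 over all genes. With the block, 4 of them were called lower (PROS1, COL1A1, COL3A1 and HGF), against 7.06% of all genes. IGF2, also among the genes tested, had enough counts only through the core libraries.

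Compared per exonic kb over the 4 libraries, AXL was the most abundant of the set, with a mean of 175 CPM per kb and a range from 122 to 238. It was followed by SOX9 (36.6), MET (34.0), DDR2 (12.5), DDR1 (12.1), PDGFRA (5.37), IGF1R (4.72) and PDGFRB (1.56), and by NGFR and KIT near 0. The ranges over the libraries overlapped for SOX9 and MET, for DDR2 and DDR1, for DDR1 and PDGFRA and for PDGFRA and IGF1R. The order within a library changed for SOX9 and MET, DDR2 and DDR1, and PDGFRA and IGF1R, so these neighbours were not separated. DDR1 stood above PDGFRA in every library. The range of DDR2 also overlapped that of PDGFRA, the range of DDR1 that of IGF1R, and the range of PDGFRA that of PDGFRB. Within every library DDR2 stood above PDGFRA and PDGFRA above PDGFRB, while DDR1 and IGF1R changed order. With the length of the longest transcript instead, AXL had 191 and DDR1 26.6 CPM per kb, and DDR1 then stood above DDR2.

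AXL also held the largest share of the receptor tyrosine kinases as a family. Summed over all 58 of them, the level was 344 and 322 CPM per kb in the core and 437 and 386 in the invasion zone. AXL made up 35.8% and 37.9% of this sum in the core and 54.4% and 56.6% in the invasion zone. The size of these shares depends on the exonic length used. With the longest transcript instead, mean levels rose from 10.5 to 29.1 for FGFR1 and from 18.4 to 31.3 for PTK7. For AXL the rise was smaller, from 175 to 191. PDGFRB made up 0.816% and 0.728% in the core and 0.196% and 0.0611% in the invasion zone, and DDR1 went from 6.24% and 4.27% to 2.20% and 0.894%. MET held 6.97% and 10.1% in the core and 8.51% and 10.9% in the invasion zone, which overlapped. The log2 ratio of AXL to MITF per exonic kb, a common index of the dedifferentiated state, was 8.63 and 8.81 in the core and 10.0 and 8.89 in the invasion zone, higher by 1.37 within replicate 1 and by 0.08 within replicate 2. MITF rested on 30 to 82 counts, and the difference of 0.73 was smaller than the spread in the invasion zone (SD 0.786, exact permutation test, two-sided, p = 0.333, the smallest possible).

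Among the 50 receptor tyrosine kinases outside the set, 21 were tested. Their median was -0.32 on the log2 scale, 5 above 0 and 16 below. TIE1, below 0, had enough counts to be tested only through the core libraries. With the block, 2 of the 21 were called lower (RET and ERBB3), against 7.06% of all genes, and 0 higher. Without it 0 were called, and 5 of the 21 had an unadjusted p under 0.05, against 24.3% of all genes, so these counts were near the background. EPHB2, an ephrin receptor, had 108 and 101 CPM in the core and 70.7 and 70.9 CPM in the invasion zone (log2 fold change -0.56, standard error 0.13). EPHA2, chosen after its values were seen as the receptor next to AXL in level, had 163 and 144 CPM in the core and 205 and 172 CPM in the invasion zone (log2 fold change 0.30, standard error 0.16).

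**Figure D4:**
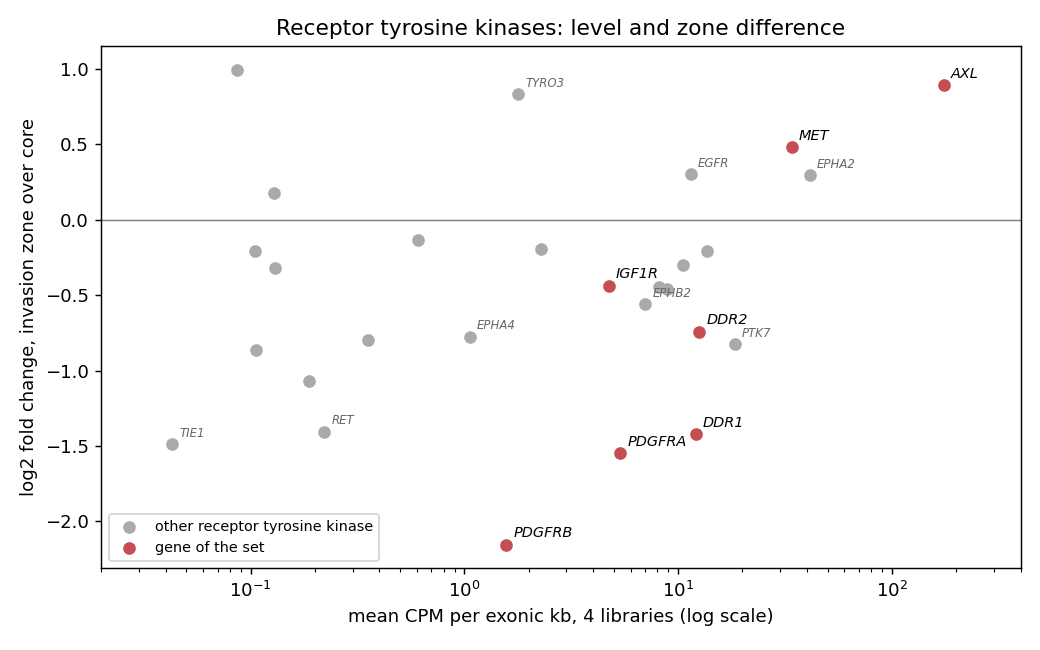
Mean level over the 4 libraries in CPM per exonic kb (logarithmic axis) against the log2 fold change from core to invasion zone for the 28 receptor tyrosine kinases tested, with genes of the set in red and others in grey, of which some are named. AXL stands apart at 175 CPM per kb and 0.89, and PDGFRB is the lowest point at -2.15.

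Of 21 adaptors and effectors that these receptors share, 20 were tested. Their median was -0.18 on the log2 scale, 6 above 0 and 14 below. IRS2 was the gene called with the block, against 10.5% of all genes. CBLB, a ubiquitin ligase that removes active receptors, had 75.7 and 73.3 CPM in the core and 41.8 and 32.7 CPM in the invasion zone (log2 fold change -0.996, standard error 0.17). PIK3R1, a regulatory subunit of PI3K, had 52.1 and 46.8 CPM in the core and 29.8 and 26.2 CPM in the invasion zone (log2 fold change -0.82, standard error 0.16). PTPN11, chosen after its values were seen, was higher in the invasion zone. It had 150.5 and 187 CPM in the core and 231 and 285 CPM in the invasion zone (log2 fold change 0.61, standard error 0.19). The adaptor GRB2 had 267 and 238 CPM in the core and 264 and 245 CPM in the invasion zone.

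Other genes of the dedifferentiated state went both ways. Of 26 genes 21 were tested, with a median of -0.21 on the log2 scale, 8 above 0 and 13 below. With the block, FOSL1 was called higher and 4 genes (AQP1, TGFBI, NUAK1 and WNT5A) lower, against 3.41% of all genes higher and 7.06% lower. FOSL1, an AP-1 factor, had 223 and 325 CPM in the core and 501 and 618 CPM in the invasion zone (log2 fold change 1.03, standard error 0.23). TGFBI, a secreted matrix protein, had 1460 and 1139 CPM in the core and 590 and 402 CPM in the invasion zone (log2 fold change -1.39, standard error 0.25). AQP1, a water channel, had 5.05 and 1.92 CPM in the core and 0.160 and 0.168 CPM in the invasion zone. It had enough counts to be tested only through the core libraries. Of the 16 lineage genes 10 were tested, and ERBB3 was the gene called with the block, against 10.5% of all genes. It was lower in the invasion zone (log2 fold change -1.10, adjusted p = 0.0295 in edgeR with the block).

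The zones also differed in proliferation and hypoxia marks beside these receptors. The summed level of 10 proliferation marks was 585 and 1122 CPM in the core and 1794 and 2136 CPM in the invasion zone. With the block, 8 of the 10 were called higher, against 3.41% of all genes. The summed level of 10 hypoxia marks was 1546 and 1442 CPM in the core and 583 and 432 CPM in the invasion zone. Of these, 7 of the 9 tested were called lower with the block, against 7.06% of all genes, while EGLN3 was too low to be tested. Their part in the differences of the receptors was not tested.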

How the data were processed

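Gene expression was measured by bulk RNAseq in 2 core and 2 invasion zone libraries of MV3 spheroids. The authors deposited raw counts per gene. Before depositing, the authors removed ribosomal reads with Bowtie, filtered reads by quality, aligned them to hg38 with STAR and counted uniquely mapped reads with HTSeq-count. The strand setting, annotation release and tool versions were not given in sources used here.

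The table held 56306 rows, of which 2 repeated rows without counts were left out, and 11789243 to 37591782 counts per library. Columns were assigned by the zone and replicate in their names. In R 4.3.3 with edgeR 4.0.16, filterByExpr kept genes reaching 10 counts (at the median library size) in 2 libraries, and 15 in total (15529 genes), library sizes were scaled by TMM, and the zones were compared by the quasi-likelihood test without a replicate term, called at a Benjamini-Hochberg adjusted p under 0.05 and a 2-fold change. Standard errors are those implied by the quasi-likelihood F. Nothing in the labels says that libraries of a zone came from separate cultures, so p-values measure the spread between these libraries, which differed by more than sampling noise (chi-square per degree of freedom 33.8 and 31.9). The labels' protocol takes each core and then its corresponding invasion zone, and columns with the same replicate number have consecutive library numbers. They were read as pairs, although no source states that the number marks a shared spheroid. Deviations from the zone means correlated between libraries of a number (r = 0.58 across genes, over 2 pairs). The members, lists, promoter motifs and the rule for named genes, which took all members and up to 4 genes of the smallest p per list, were chosen with earlier results of these data known. Genes named from counts of 5 or fewer, TYRO3, EPHA2, PTPN11, IRS1, MATN1, FGFR1, PTK7, MERTK, INSR and members of the lists given to show that a gene was near 0 or level were added after their values were seen. GENCODE release 44 (GRCh38), with 98.1% of the identifiers matched, gave exonic lengths and positions. Intervals are exact (Clopper-Pearson), at 95%, and cover counting error only. Within-library ratios used a pseudocount of 0.5 counts. Results of 1 gene of the ligand list, which stays in the list counts, are not reported here. Scripts were tested on simulated data. Alternatives were RLE scaling, other count filters, a replicate block, DESeq2 1.42.0, limma voom 3.58.1, unadjusted p, no fold change minimum, each library left out, a pseudocount of 2 counts and another gene length. Of these, DESeq2 and limma voom with the block were chosen after seeing the data. Figures were drawn with matplotlib 3.10.9.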

Additional observations from a re-analysis of the deposited data

How the results depend on the processing

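The replicate 2 libraries hold fewer counts, and PDGFRB rests on 20 counts in that of the invasion zone, HGF, COL3A1 and IGF2 on 1 each and PDGFD on 0. With 2 libraries per zone, the test without a block has few degrees of freedom. The numbers of all genes called higher and lower, 0 and 0, and of members called higher and lower, 0 and 0, stayed so with RLE scaling, at least 10 counts in every library, limma voom and no fold change minimum. In every other alternative run on 4 libraries, 3 members were called lower (PDGFRA, PDGFRB and DDR1) and 0 higher.

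Over all genes, the numbers higher and lower were 427 and 846 without a low-count filter, 530 and 1097 with the replicate block that pairs same-numbered libraries, 354 and 548 with DESeq2 (adjusted p), 444 and 840 with DESeq2 (unadjusted p), 454 and 909 at an unadjusted p, 575 and 1088 with limma voom and the replicate block, and 427 and 731 with DESeq2 and the replicate block. In the same order, the genes of the other lists called, 0 and 0 in the main test, were 9 and 22, 11 and 25, 9 and 16, 11 and 23, 11 and 23, 13 and 25, and 10 and 19. The log2 fold change of PDGFRA was in that order -1.55, -1.65, -1.56, -1.56, -1.55, -1.50 and -1.67, that of PDGFRB -2.15, -2.22, -2.19, -2.19, -2.15, -2.01 and -2.39, and that of DDR1 -1.42, -1.54, -1.42, -1.42, -1.42, -1.41 and -1.55. The cause was not tested. With the replicate block no member outside these 3 changed its call.

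With each library left out, between 13 and 632 genes were higher and between 125 and 1137 lower, between 0 and 3 members were lower, and between 0 and 11 genes of the other lists were higher and between 7 and 24 lower, with the spread of a zone's single library taken from the other zone. The log2 fold changes then ranged from -2.50 to -1.01 for PDGFRA, from -3.45 to -1.59 for PDGFRB, from -2.36 to -0.88 for DDR1 and from -0.16 to 0.25 for SOX9. SOX9 also changed sign with at least 10 counts in every library (-0.0016). With the longest transcript as length, AXL had 191 and DDR1 26.6 CPM per kb, a shift fixed by the lengths, and the zone differences of the within-library ratios moved by less than their spread with a pseudocount of 2 counts. The ratio of SOX9 to SOX10 itself, with SOX10 at 0 counts, is set by the pseudocount and is given only as a bound.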
